A study of Drosophila melanogaster with 2 samples.

Results

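The proteasome subunit genes of *Drosophila melanogaster* were read for binding by CG1603, a zinc finger protein, in whole embryos. The 48 members were the protein-coding genes whose symbol begins with Prosalpha, Prosbeta, Rpn or Rpt and a digit, out of 13945 protein-coding genes on the chromosome arms. They comprised 12 core alpha, 13 core beta, 14 Rpn and 9 Rpt genes. Of these, 32 carried a plain subunit name and are called main genes here, and 16 carried a T or R suffix and are called copies. The study held 1 group with 2 libraries, biological replicates 2 and 3. Both came from a transgenic line with GFP fused to the C terminus of CG1603, as embryos aged 0 to 16 h with the sexes pooled, and the chromatin was sonicated to 200 to 800 bp. The promoter that drives the fusion was not stated in the labels. The description names a GFP antibody for the precipitation while the antibody field names CG1603, and this difference could not be settled from the labels. There was no untreated or mutant group, so no comparison between conditions could be made. Nothing in the labels says whether the replicates were separate collections, so their spread may be technical in part. In whole embryos, binding in fewer cells and weaker binding in each cell cannot be told apart.

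The proteasome degrades proteins tagged with ubiquitin. Its core is a barrel of stacked alpha and beta rings, with the alpha rings forming the gate and the beta rings holding the proteases. The regulatory particle sits on the barrel. Its base holds the Rpt ATPases that unfold substrates, and its lid and base hold the Rpn subunits that bind, position and deubiquitinate them. Subunits are needed in fixed proportions, and in animals the genes can be induced together by transcription factors of the Nrf family (cnc in *Drosophila*). Several copies with a T or R suffix are known in *Drosophila* for expression in the male germ line.

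Reproducible peaks were those of the authors' list, cut by a threshold on agreement between replicates. The members' strongest peaks held the same ranks there as in the pooled list, down to 8470 at Prosalpha4. A peak in it can therefore be weak in 1 replicate, as at Rpn8. A gene was called bound when a reproducible summit lay within 500 bp of the transcription start site (TSS) of any coding transcript. By this rule 24 of the 48 proteasome genes were bound, against 35.3% of all protein-coding genes. The calls split by kind of gene. Of the main genes 23 of 32 were bound (71.9%), and of the copies 1 of 16 was bound (6.25%). The regulatory particle had 14 of 18 main genes bound and the core 9 of 14. With the replicates read separately, each cut to its own 8963 strongest peaks to equal the length of the reproducible list, 23 of the 32 main genes and 1 of the 16 copies were bound in replicate 2, and the same counts were found in replicate 3. The background was 34.4% of all genes in replicate 2 and 37.5% in replicate 3. No test was made between these kinds of gene, since all calls were read from the same pair of libraries and genes are not replicates.

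**Figure D1:**
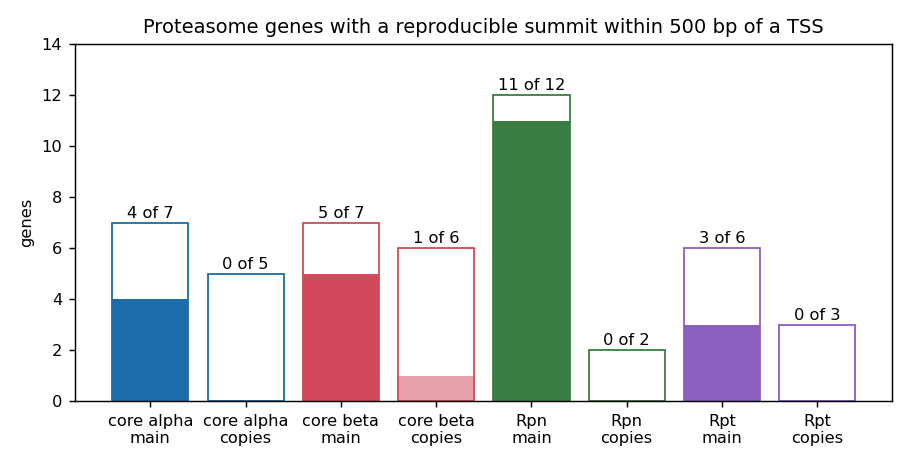
Number of proteasome genes of each class (outline) and number bound by CG1603 (fill), main genes and T or R copies apart. Rpn main genes were bound in 11 of 12 cases, while copies were bound in 1 of 6 core beta cases and in none of the 5 core alpha, 2 Rpn and 3 Rpt cases.

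In the core alpha ring 4 of the 7 main genes were bound, Prosalpha2, Prosalpha4, Prosalpha5 and Prosalpha6, and 3 were not. The strongest peak at any proteasome gene lay at Prosalpha6 (FBgn0250843), chr2L:10220694-10221645 in dm6, with its summit in intergenic sequence 30 bp upstream of the TSS. The peak signal, the authors' own value on a scale that was not stated, was 5003 in replicate 2 and 4695 in replicate 3. These signals placed it at rank 42 of 30000 in replicate 2 and rank 34 of 30000 in replicate 3, and it stood at rank 38 of 8963 in the reproducible list with a signal of 9712. Both replicates therefore held it among their strongest peaks. The peak was 952 bp wide, the widest at a member, where the median width was 214 bp. It also lay 105 bp from the TSS of Npc1a, a sterol transport gene. The copy Prosalpha6T had no peak within 500 bp in any list, and its nearest reproducible summit was 9517 bp away.

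The 120 bases upstream of the TSS are shown for Prosalpha6, the most strongly bound member, and for its unbound copy Prosalpha6T, to set both promoters side by side. They were read from the RefSeq release 6 assembly, whose coordinates are those of dm6, 5′ to 3′ on the strand of the gene. Capitals mark the DNA replication-related element TATCGATA (DRE), bound by the factor Dref, and the shorter core CGATA in either direction, known for the boundary protein BEAF-32. The DRE contains the CGATA core.
Prosalpha6 (chr2L:10221231-10221350, plus strand): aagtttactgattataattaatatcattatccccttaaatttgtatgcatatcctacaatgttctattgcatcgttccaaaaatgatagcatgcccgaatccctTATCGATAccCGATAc
Prosalpha6T (chr2L:13231919-13232038, plus strand): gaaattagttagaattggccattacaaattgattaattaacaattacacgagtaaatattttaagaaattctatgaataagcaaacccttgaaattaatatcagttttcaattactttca
The Prosalpha6 stretch held a DRE that began 16 bp upstream of the TSS, its centre 17.5 bp from the summit, and a further CGATA just after it. The Prosalpha6T stretch held neither.

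The other core alpha genes had peaks of middle or low rank. Prosalpha5 had a signal of 160.2 in replicate 2 and 158 in replicate 3, rank 4586 in the reproducible list, with its summit 23 bp upstream. Prosalpha2 had a signal of 195 and 150.4, rank 4050, with its summit 107 bp upstream in the 3′ UTR of a neighbouring gene. The peak at Prosalpha4, close to the end of the list, had a signal of 82.1 in replicate 2 and 75.3 in replicate 3. It ranked 8470 of 8963, with a reproducible-list signal of 152 where the smallest in that list was 140.3. That peak was shared with kat80, a katanin subunit gene 128 bp from the summit. Prosalpha3 and Prosalpha7 had no peak within 500 bp in any list, at any rank. Prosalpha1 had none either, but every 31-base word within 500 bp of its TSS occurs elsewhere in the genome, as at Prosalpha1R, so reads there may not be placed uniquely and neither gene's call can be read. Without those genes, a setting chosen after seeing the data, 23 of 31 main genes were bound (74.2%). That setting left 4 of 6 main genes bound in the core alpha ring and 1 of 15 copies (6.67%). Around the Prosalpha3 TSS 92.9% of 31-base words were unique.

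In the core beta ring 5 of the 7 main genes were bound. The catalytic subunits split. Prosbeta1, which carries the caspase-like activity, had a signal of 673 in replicate 2 and 659.5 in replicate 3, rank 505, and its summit lay 80 bp upstream of its TSS and 41 bp from that of Rrp42, an RNA exosome subunit gene. Prosbeta5, which carries the chymotrypsin-like activity, had a signal of 401 and 394, rank 1301, with the summit 34 bp upstream and 60 bp from dgo, a planar polarity gene. Prosbeta2, which carries the trypsin-like activity, was not bound. Its strongest pooled peak ranked 15799 of 30000, 345 bp upstream. The strongest within 500 bp ranked 12437 in replicate 2, 357 bp upstream, and 15379 in replicate 3, 160 bp upstream, so the replicates' weak peaks lay at different places.

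Among the noncatalytic beta subunits, Prosbeta7 had a signal of 185 in replicate 2 and 271 in replicate 3, rank 2845, 32 bp upstream. Prosbeta6 had 85.3 and 118, rank 6682, 13 bp upstream, the summit nearest to a TSS among the members. Prosbeta3 had 75.9 and 82.0, rank 7904, 92 bp upstream and 138 bp from Iru. All 3 ranked higher in replicate 3. Prosbeta4 was not bound. It had a pooled peak at rank 11581, 80 bp downstream of its TSS, 2 in replicate 3, the stronger at rank 9437, and none in replicate 2.

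The Rpn genes were bound in 11 of 12 cases. All 8 lid genes counted here, Rpn3, Rpn5, Rpn6, Rpn7, Rpn8, Rpn9, Rpn11 and Rpn12, were bound. Of the non-ATPase base subunits Rpn2, a scaffold, and Rpn13, a ubiquitin receptor, were bound, as was Rpn10, the ubiquitin receptor between lid and base. The exception was Rpn1, the large subunit known to dock ubiquitin shuttles. It had a peak of signal 224 and rank 2892 in replicate 3, 59 bp upstream of its TSS, and none within 500 bp in replicate 2 or in the pooled list. Rpn1 was the 1 member called in a single replicate's 8963 strongest peaks that was absent from the other replicate at any rank.

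The strongest Rpn peak was at Rpn7, a lid scaffold subunit. Its signal was 941 in replicate 2 and 812 in replicate 3, ranks 345 and 347, and the summit lay 27 bp upstream at chr3R:22461909-22462221. A second reproducible peak, rank 7926, lay 478 bp upstream and 77 bp from AP-2mu, an adaptor protein gene. Rpn2 had a signal of 357 and 420.0, rank 1304, 114 bp upstream and shared with Slbp, the histone mRNA stem-loop binding protein gene. Rpn6 had 376 and 398, rank 1341, also 114 bp upstream, shared with ave. Rpn10 had 368 and 335, rank 1552, and its summit lay 21 bp downstream in its 5′ UTR with no other coding promoter nearby. These 4 genes and Rpn3 were the Rpn genes at or above percentile 75 of the reproducible peaks by signal, a class that held 5 of 11 bound Rpn genes, 8 of 24 bound members (33.3%) and 34.8% of all bound genes.

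The remaining lid genes, and Rpn13 of the base, ranked in the middle of the list or below. Rpn5 had a signal of 217 in replicate 2 and 207 in replicate 3, rank 3207. Its summit was 335 bp upstream, the largest distance among the members' strongest peaks, and 84 bp from Hat1, a histone acetyltransferase gene. The Rpn5 summit therefore lay nearer to the neighbour than to the proteasome gene. Rpn9 had 184 and 179.9, rank 3781, 215 bp downstream. Rpn12 had 143 and 158, rank 4585, 104 bp upstream. Rpn11, the deubiquitinase of the lid, had 161 and 128, rank 4776, 63 bp upstream. Rpn12 and Rpn11 shared their peak with no other coding promoter. Rpn13 had 158 and 187, rank 3893, 40 bp upstream, and a second reproducible peak of rank 6676, 241 bp upstream and 30 bp from CtsL1, a cathepsin gene.

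The replicates differed most at Rpn8 and Rpn3. At Rpn8, the inactive partner of Rpn11, the signal was 157 in replicate 2, rank 4636, and 36.8 in replicate 3, rank 17144. The overlapping replicate 3 summit stood 164 bp from the reproducible one, which lay 153 bp upstream in an intron and 172 bp from Slik, a kinase gene. At Rpn3 the signal was 371 in replicate 2, rank 1513, and 200.1 in replicate 3, rank 3363, with the summit 25 bp upstream and 153 bp from l(2)37Bb. These were the 2 members whose ranks differed by more than a factor of 2 between replicates. Around the Rpn3 TSS 89.3% of 31-base words were unique. At the other 22 bound genes the ranks lay within that factor, 14 of the 24 ranked higher in replicate 3 and 10 in replicate 2. Both replicates had an overlapping peak at every bound member.

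**Figure D2:**
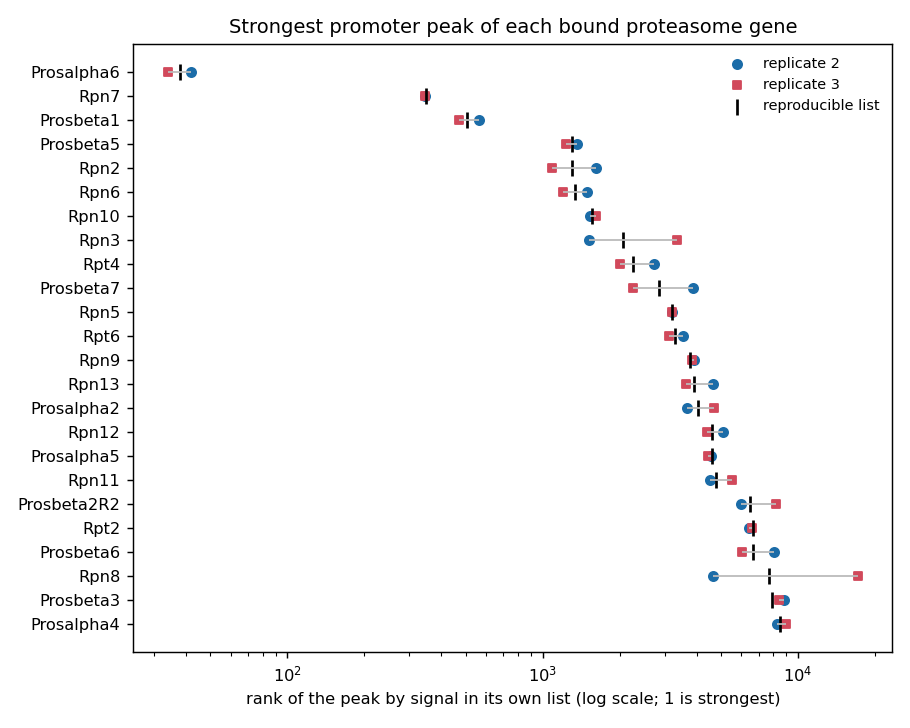
Rank of the strongest promoter peak of each of the 24 bound proteasome genes in the reproducible list (bars), on a log axis where 1 is the strongest. Circles (replicate 2) and squares (replicate 3) give the rank of the replicate's peak that overlaps it. The replicate marks lie close together except at Rpn8 (4636 and 17144) and Rpn3 (1513 and 3363).

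The Rpt ATPase genes were bound in 3 of 6 cases. Rpt4 had a signal of 246 in replicate 2 and 294 in replicate 3, rank 2250, 38 bp upstream of its TSS and 20 bp from that of mldr. Rpt6 had 201 and 212, rank 3293, 35 bp upstream and shared with no other coding promoter. Rpt2 had 111 and 108, rank 6679, 28 bp upstream and shared with CG13599. The 3 summits thus stood within 10 bp of each other when placed from the nearest TSS of each gene. Rpt2 has 2 TSSs, and its summit fell in 5′ UTR sequence. Rpt1, Rpt3 and Rpt5 had no peak within 500 bp in any list. In yeast the ATPases assemble as the pairs Rpt1 with Rpt2, Rpt3 with Rpt6 and Rpt4 with Rpt5, and each of these pairs held 1 bound and 1 unbound gene, a split seen only after the values were known.

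The copies were almost without peaks. Prosbeta2R2 (FBgn0037296), a copy of the unbound Prosbeta2, was the 1 bound copy, with a signal of 121 in replicate 2 and 84.1 in replicate 3, ranks 5968 and 8182. Its reproducible rank was 6459, 96 bp upstream of its TSS, and the summit stood 33 bp from that of its divergent neighbour CG1116, so it was nearer to CG1116. The other 15 copies had no peak within 500 bp in the reproducible, pooled or replicate lists, at any rank. They were Prosalpha1R, Prosalpha3T, Prosalpha4T1, Prosalpha4T2, Prosalpha6T, Prosbeta2R1, Prosbeta4R1, Prosbeta4R2, Prosbeta5R1, Prosbeta5R2, Rpn12R, Rpn13R, Rpt3R, Rpt4R and Rpt6R. Their nearest reproducible summits lay from 3030 bp (Rpt3R) to 68687 bp (Prosbeta5R2) away, with a median of 12956 bp. Among these copies, the call at Prosalpha1R cannot be read, as given above. Of the 9 unbound main genes 3 had a peak in some list and 6 had none, and their nearest reproducible summits lay 1324 to 11843 bp away, median 4772 bp. The median over all unbound genes was 7875 bp. Among all unbound genes 18.2% had a pooled peak within 500 bp, against 22.2% of the unbound main genes. With the whole pooled list the main genes rose to 25 of 32 through Prosbeta2 and Prosbeta4, against 47.1% of all genes.

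**Figure D3:**
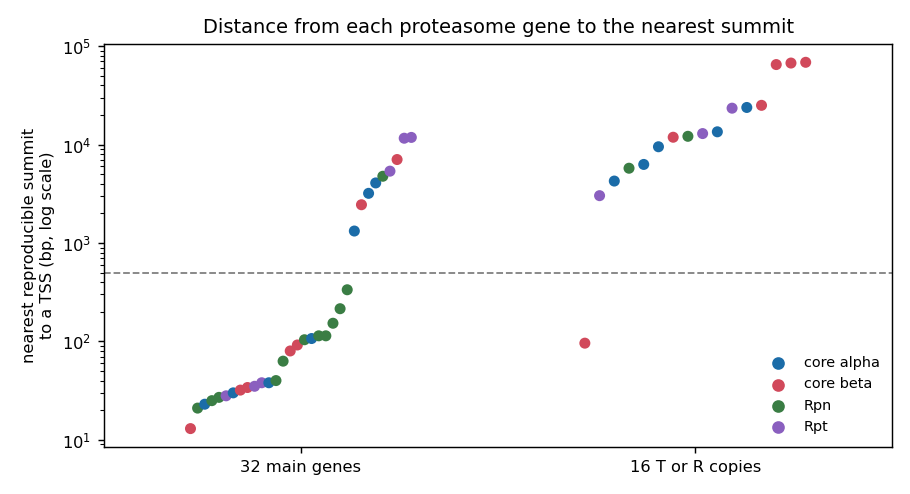
Distance from each of the 48 proteasome genes to the nearest reproducible summit (bp, log axis), with the 32 main genes and 16 copies apart and the class by colour. The dashed line marks 500 bp; 23 main genes and 1 copy lie under it, and the 15 other copies lie at 3030 bp or more.

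The upstream 120 bases of Prosbeta2 and Prosbeta2R2 are shown because the main gene was unbound and the copy bound. Strand, source and capitals are as above.
Prosbeta2 (chr3L:14999831-14999950, plus strand): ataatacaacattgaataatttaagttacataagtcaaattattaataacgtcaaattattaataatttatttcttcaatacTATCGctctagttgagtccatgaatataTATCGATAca
Prosbeta2R2 (chr3R:5219529-5219648, minus strand): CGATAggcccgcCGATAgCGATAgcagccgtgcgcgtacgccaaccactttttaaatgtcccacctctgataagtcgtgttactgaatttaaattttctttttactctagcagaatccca
The Prosbeta2 stretch held a full DRE, which began 10 bp upstream of the TSS, and a further CGATA core, with no reproducible peak. The Prosbeta2R2 stretch held 3 CGATA cores at its far end, on the side of CG1116, and no DRE.

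Bound members carried their summits close to the TSS. The strongest summit lay within 120 bp of the TSS on either side at 21 of 24 (87.5%), against 63.3% of all bound genes. It was upstream of the nearest TSS of the gene at 21 of 24, a share of 87.5% that was near the 86.1% of all bound genes. At Prosbeta7, Rpn6, Rpn8 and Rpt2, each with 2 TSSs, this upstream summit lay inside the annotated gene, downstream of the other TSS. The median distance was 39 bp among the members and 77 bp among all bound genes. The summits fell in intergenic sequence at 14 of the 24, in introns at 5, in 5′ UTRs at 4 and in a 3′ UTR at 1. The median percentile of the members' strongest peaks among reproducible peaks was 60.5, against 64.2 for all bound genes.

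**Figure D4:**
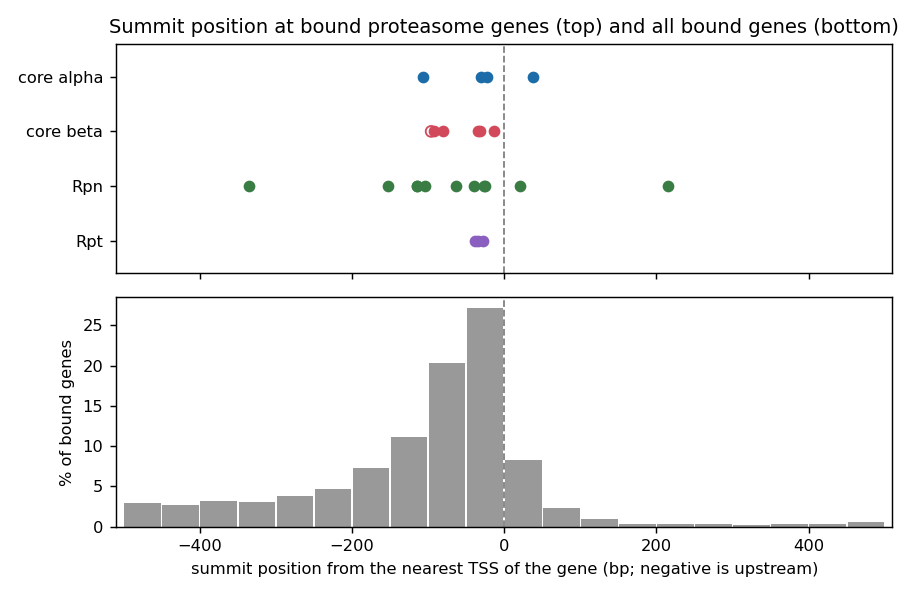
Position of the strongest summit from the TSS (bp, negative upstream) for the 24 bound proteasome genes by class (top, the open circle is the copy Prosbeta2R2) and, as percent of genes per 50 bp, for all 4919 bound genes (bottom). Outside 120 bp lie Rpn5 (-335), Rpn8 (-153) and Rpn9 (215).

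Many members share their promoter region with a neighbour, which bears on what a summit can be assigned to. A divergent protein-coding neighbour, with its TSS within 500 bp upstream, was present at 21 of the 32 main genes (65.6%), against 27.4% of all genes. Genes with such a neighbour were bound more often in the whole set, 59.6% against 26.1% of genes without one. Within the main genes 15 of 21 with a divergent neighbour and 8 of 11 without one were bound (71.4% and 72.7%). Of the copies 1 of 3 with and 0 of 13 without such a neighbour were bound. The strongest peak lay within 500 bp of another coding TSS at 16 of 24 bound members (66.7%, against 50.5% of all bound genes), and at 5 of these, Prosbeta1, Rpn5, Rpt4 and Prosbeta2R2 among them, the neighbour's TSS was the nearer. Counting a summit for its nearest TSS alone left 19 of 32 main genes and 0 of 16 copies bound, with 27.8% of all genes bound by that rule.

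The number of TSSs moved with the calls as well. Genes with 1 TSS were bound in 28.9% of cases and genes with more in 53.1%. Among main genes 14 of 22 with 1 TSS and 9 of 10 with more were bound. For the copies these counts were 1 of 14 and 0 of 2. The part of annotation depth in the difference between main genes and copies was not tested. Within genes of 1 TSS, 63.6% of main genes and 7.14% of copies were bound. By chromosome arm, bound main genes numbered 3 of 4 on 2L, 6 of 10 on 2R, 3 of 5 on 3L, 8 of 9 on 3R and 3 of 4 on X.

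Promoter sequence was searched from 250 bp upstream to 50 bp downstream of the most upstream TSS, on both strands, for fixed letters. The DRE, TATCGATA, matched in 12 of 32 main genes (37.5%), 0 of 16 copies and 9.36% of all genes. Among main genes it matched in 9 of 23 bound (39.1%) and 3 of 9 unbound (33.3%) genes. In the whole set it matched in 16.8% of bound and 5.32% of unbound genes. Over every TSS of a gene, a DRE also matched at 1 copy, Rpt3R. The core CGATA matched in 27 of 32 main genes (84.4%), 8 of 16 copies and 47.4% of all genes. In the whole set it matched in 58.5% of bound and 41.3% of unbound genes. Within 100 bp on either side of the TSS it matched in 23 of 32 main genes (71.9%), 3 of 16 copies (18.8%) and 39.4% of all genes, so the copies' share depended on the window. Counting only CGATA outside a DRE, the figures were 65.6%, 50% and 44.8%. Motif 1 of *Drosophila* core promoters, GGTCACACT, known for the factor M1BP, matched in 5 of 32 main genes, 0 copies and 6.05% of all genes. The antioxidant response element TGACNNNGC, the site of Nrf factors such as cnc, matched in 5 of 32 main genes, 1 copy (Prosbeta4R2) and 8.63% of all genes, and 2 of its 7 matches overlapped Motif 1. The E-box CACGTG matched in 0 of 32 main genes, 0 of 16 copies and 4.2% of all genes. The TATA box TATAAA matched in 13 of 32 main genes, 5 of 16 copies and 45.8% of all genes. Base composition was lower in GC in both kinds of member, with a median of 33.5% in main genes and 32.7% in copies, against 38% in all genes.

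**Figure D5:**
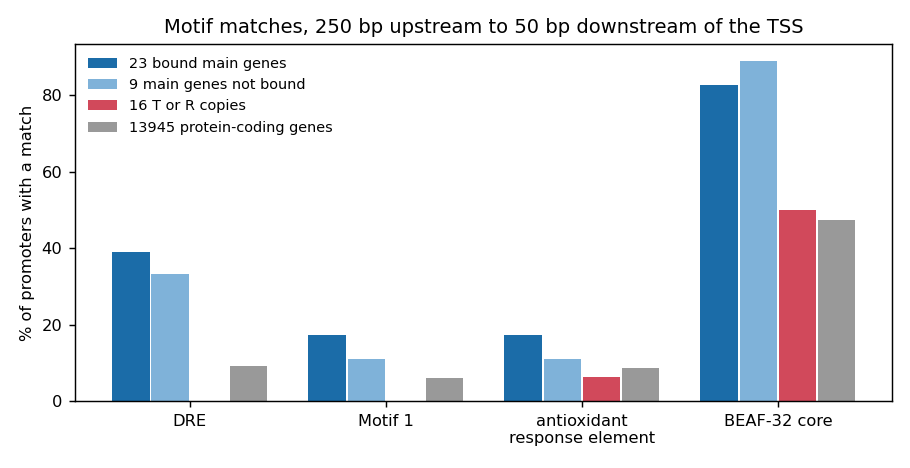
Percent of promoters with at least 1 match to each motif, for bound main genes, unbound main genes, copies and all protein-coding genes. DRE and the CGATA core were matched in similar shares of the bound (39.1% and 82.6%) and unbound (33.3% and 88.9%) main genes, and DRE in none of the copies in this window. Over all genes, a split not drawn here, the shares were 16.8% and 58.5% of bound and 5.32% and 41.3% of unbound genes.

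The DRE sites of 7 members are given with 10 flanking bases on each side, 5′ to 3′ on the strand of the gene, with the DRE in capitals, to show how alike or unlike their surroundings are. The sequence is that of RefSeq release 6, in dm6 coordinates.
Prosalpha6 (chr2L:10221325-10221352, plus strand): ccgaatccctTATCGATAcccgatacac
Prosbeta6 (chr3L:16610445-16610472, minus strand): tatgtataccTATCGATAacgtttaagc
Rpn3 (chr2L:19051583-19051610, plus strand): gttatcggagTATCGATAtcgaaaaggc
Rpn7 (chr3R:22462034-22462061, minus strand): cggtataattTATCGATAattttggggt
Rpn12 (chr3L:16582802-16582829, plus strand): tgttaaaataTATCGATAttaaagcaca
Prosbeta2 (chr3L:14999931-14999958, plus strand): catgaatataTATCGATAcaatatcgat
Rpt5 (chr3R:23752820-23752847, plus strand): tcgctgtcacTATCGATAagcgccggcg
The first 5 belong to bound genes, and Prosbeta2 and Rpt5 were unbound. The DREs began between 217 bp upstream and 26 bp downstream of the TSS over all 12 genes. At the 9 bound genes the centre of the DRE lay 6.5 to 185.5 bp from the strongest summit, within 50 bp in 5. The second reproducible peaks of Rpn7 and Rpn13 were left out of these distances.

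The Motif 1 sites in the same window are given likewise, with GGTCACACT in capitals. The flank is cut at the window's end (8 bases follow the motif at Prosalpha4). The sites are shown because, in this window, the motif matched a largely different set of members from the DRE.
Prosalpha2 (chr3R:12431328-12431356, plus strand): ttcagcattcGGTCACACTgccgcccaat
Prosalpha4 (chrX:16276293-16276319, plus strand): cccatgctgcGGTCACACTgcggcatt
Prosbeta3 (chr3R:9006424-9006452, minus strand): gacgcggcctGGTCACACTgaaagctaat
Rpn7 (chr3R:22462018-22462046, minus strand): ataattttggGGTCACACTggtagtacat
Rpn1 (chr3L:19915040-19915068, plus strand): ttcgccgcgcGGTCACACTgcaaaaagcg
Within the window searched, from 250 bp upstream to 50 bp downstream, Rpn7 was the 1 member with both motifs. At Prosalpha4 the centre of Motif 1 lay 1 bp from the summit, and at Prosalpha2 128 bp from it. Rpn1 held its site at the TSS and was unbound in the reproducible list.

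At the summits themselves, within 50 bp on either side, the DRE matched in 6 of 26 member peaks (23.1%), against 8.87% of all peaks at promoters, and CGATA in 16 of 26 (61.5%), against 35.3%. Motif 1 matched in 2 of 26 (7.69%), against 5.06%. The 2 were at Prosalpha4 and at Rpn9, which also held a DRE in its promoter window. The antioxidant response element matched in 0 of 26, against 3.74%. The 26 peaks count both reproducible peaks of Rpn7 and of Rpn13. A match describes the letters and is not evidence of a factor at the site.

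The genes that act with the proteasome were bound at a share near that of the main subunits. Of 23 listed genes 21 were matched by symbol, and 17 of these were bound (81%), against 35.3% of all genes. All 4 ubiquitin genes or activators were bound. RpS27A, which encodes ubiquitin fused to a ribosomal protein, had the strongest peak of the list at rank 30 with a signal of 12479. Uba1, the ubiquitin activating enzyme, ranked 1995, and Ubi-p63E and RpL40, which encode polyubiquitin and a ubiquitin fusion, ranked 6409 and 7130. The Uba1 summit lay 368 bp upstream of its TSS, and its call was lost at a distance of 250 bp. Of proteasome-associated genes 7 of 8 were bound. The deubiquitinases Usp14 and Uch-L5 ranked 83 and 867, the assembly chaperone Pomp 1210, the lid subunit Sem1 6833, the regulator PI31 4642 and its partner ntc 5743, and akirin 6672. The proteasome activator REG was unbound, with a pooled peak at rank 28124.

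Of the shuttle and unfoldase genes 2 of 4 were bound, Rad23 at rank 323 and Ubqn at rank 1871. TER94, the unfoldase also known as p97, had a peak in replicate 2 alone (rank 1228), and its cofactor Npl4 in replicate 3 alone (rank 4444). Of the control genes 4 of 5 were bound. The transcription factor cnc ranked 1415, its partner maf-S 8758, its inhibitor Keap1 3941 and the glycanase Pngl 3969, while rngo was unbound. The maf-S peak ranked 9420 in replicate 2 and 9134 in replicate 3, outside the 8963 strongest of each, so its call was lost with either replicate alone. The cnc summit lay 329 bp downstream of its TSS, and its call was lost at a distance of 250 bp and with the most upstream TSS only.

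As other multisubunit complexes, the CCT chaperonin genes were bound in 7 of 8 cases (87.5%) and the vacuolar ATPase genes in 9 of 22 (40.9%), the latter near the 35.3% of all genes. The main proteasome genes at 71.9% stood between them, as did all 48 members, copies included, at 50%. The vacuolar ATPase list took every matching symbol, so the 50% is the like value beside its 40.9%. The median percentile of bound genes was 35.4 for CCT, 63.3 for the main proteasome genes and 84.9 for the vacuolar ATPase, so the complex with the largest share of bound genes had the lowest median. These are values for 3 lists, without a test.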

How the data were processed

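Chromatin immunoprecipitation sequencing was made on 2 libraries of 1 group. The sources used here are peak lists, so depth and aligned reads were not analysed. Per the deposited description files, the authors called peaks on dm6 for each replicate and for the pooled replicates against a control, and kept reproducible peaks by an irreproducible discovery rate threshold (8963 peaks). The replicate and pooled lists each hold 30000 peaks, which limits how weak a peak can appear. For the caller and aligner, names and versions were not given in the sources used here. The deposited signal value of a peak is the authors' own, with no scale stated, and served only for ordering peaks inside each list. The deposited −log10 q value was not used for any call. The summit offset, a deposited distance in bases from the peak start, gave each summit.

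Genes and TSSs were taken from Ensembl 115 (BDGP 6.54), and bases were read from RefSeq's release 6 assembly, whose chromosome names and lengths were compared with the peaks. Genes were bound by a summit within 500 bp of a TSS. The assignment was tested on simulated data. All bound members, unbound main genes, copies and bound pathway genes are named. Python 3.11.15, NumPy 2.4.6 and pandas 2.3.3 were used. The members, lists and rules were chosen with earlier results of these data known. The alternatives were another distance, each replicate alone, list depth, TSS choice, peak interval and motif window. No control peak list was analysed here and no hypothesis test was made. The neighbour of 1 member is not reported here.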

Additional observations from a re-analysis of the deposited data

Results flagged for a closer look

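The pooled list held 6 peaks outside the reproducible list within 500 bp of a proteasome TSS, a signal in data that the calls did not use. They lay at Prosalpha4 (rank 9261), Rpn8 (10629), Prosbeta4 (11581), Prosbeta2 (15799), Rpn13 (20523) and Rpn11 (22949). Of these genes Prosalpha4, Rpn8, Rpn13 and Rpn11 were bound through another peak, while Prosbeta2 and Prosbeta4 had no reproducible peak. Such a peak was thus present at 2 of the 24 unbound members, against 18.2% of all unbound genes. No control peak list was analysed, so whether such weak peaks exceed a control level was not tested.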

How the results depend on the processing

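Of the 48 members, 9 stayed bound and 21 stayed unbound under all 9 alternatives. The 21 include Prosalpha1 and Prosalpha1R, whose calls cannot be read. Restricting to the strongest 4481 reproducible peaks left 15 bound members, all of them main genes, with 0 copies, 2 core alpha and 3 core beta genes, against 23% of all genes. Counting a summit for its nearest TSS alone left 0 copies and lowered the median percentile to 56.6. The median summit distance was 51.5 bp from the most upstream TSS alone. Leaving out each replicate in turn gave 24 bound members both times, 23 main genes, 1 copy, 4 core alpha, 5 core beta and 14 regulatory particle genes, with a median percentile of 57.8 to 63.3 and a median distance of 45.5 to 53 bp. Without replicate 2, Rpn8 was lost and Rpn1 gained. A distance of 250 bp lost Rpn5, 1000 bp changed nothing, and requiring the peak interval to hold a TSS lost Prosalpha2, Rpn5, Rpn8, Rpn9 and Rpn12. The cause of these changes was not tested. No paired analysis was possible because there is 1 group. Depth is unknown, so a missing peak is not evidence of absence of binding. The other motif windows for the copies were chosen after seeing the data: CGATA matched in 3 of 16 within 100 bp of the TSS and the DRE in 1 of 16 over every TSS.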
